A study of Arabidopsis halleri with 24 samples.

Results

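The 54 probe sets described here each interrogate the transcript of 1 gene of the plastid genome, among 22746 probe sets of the ATH1 array without its controls. They were chosen by a rule on names that uses no signals, although earlier results of these data were known when they were chosen. A probe set entered when the probe table gave it 1 symbol and that symbol was a plastid gene name (psa, psb, pet, atp, ndh, rbcL, rpo, accD, ccsA, cemA, clpP, matK, ycf) or a plastid locus code. They divided into 5 of photosystem I, 15 of photosystem II, 6 of the cytochrome b6f complex, 6 of the ATP synthase, 10 of the NDH complex, 1 of Rubisco, 4 of the plastid RNA polymerase and 7 others. Probe sets for ndhB, ycf1 and ycf2 carried their symbol 2 times and were left out under the rule of 1 symbol, so 3 plastid genes with a probe set are not described.

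Total RNA of Arabidopsis halleri, a zinc-hyperaccumulating relative of A. thaliana, was labelled with biotin and hybridised to 24 ATH1 arrays, which carry A. thaliana probes. The titles gave 8 groups of 3 arrays, which combined 2 bulks, 2 organs and 2 media. The study set out to find the molecular bases of zinc tolerance and accumulation, and its design compared plants pooled for accumulating zinc (the accumulating bulk) with plants pooled for not doing so (the non-accumulating bulk). A bulk is a pool of plants that share a trait, which limits what a bulk says of any 1 plant. The organs were the whole root system and the rosette leaves. All groups grew at the same recorded stage in a growth room with 10 h of light and full mineral medium, and the high-zinc groups carried a treatment label of 25 µM zinc. The control groups had no zinc figure in the labels. Replicate 1 of the non-accumulating control roots had the source name halleri in place of a bulk and is counted here by its title. The labels did not say whether replicates were separate plants, pools or extracts, so the p-values measure only the spread between these arrays.

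Plastids keep a small genome inherited from a cyanobacterial ancestor, which encodes core subunits of the photosynthetic complexes, part of the plastid ribosome and the catalytic core of a bacterial-type RNA polymerase. Most photosynthesis genes in it are transcribed by that plastid-encoded polymerase, whereas rpoB with its neighbours, accD and, in part, clpP are known in higher plants as targets of nuclear-encoded phage-type polymerases. Many plastid genes are transcribed in polycistronic units that are then cut, edited and trimmed by nuclear-encoded proteins. Leaves hold green chloroplasts, and roots hold mainly non-green plastids, in which photosynthesis genes are known to be weakly expressed.

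The deposited values were linear MAS5 signals, scaled by the authors so that each array had a trimmed mean of 100, and each change below is a difference of log2(signal + 16). Comparisons of level stay within a probe set, never between genes, because A. halleri sequence may differ from the A. thaliana probes to an unknown degree for each gene. That match and the pseudocount can alter the size of a change too. Sizes of change are therefore set side by side between genes and gene groups as a description only. A change was called at a Benjamini-Hochberg adjusted p below 0.05 in limma, adjusted over all probe sets tested. The organ labels held: RCA, PRK, SBPASE, LHCB4.1 and LHCB4.2, nuclear genes of leaf photosynthesis, were all lower in roots, and PYK10, EXPA7 and EXPA18, root-expressed genes, were all higher there. In leaves all 54 plastid-encoded members passed the filter on low signals (a signal of 53.3), although the mean of ndhF over all leaf arrays lay below it. In roots 50 passed (a signal of 56.3), and psbN, ndhJ, atpI and ndhF did not. These 4 entered the fit of both organs only through their leaf signals, so the direction of their root-leaf change is no independent result and its size was set in part by the pseudocount. Nearest to the filter among those that passed were psaC, whose mean over all root arrays lay below it, and petD.

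All 54 plastid-encoded members were called lower in the root system than in rosette leaves, averaged over bulk and medium. Of these, 50 passed the filter in roots as well. The direction of psbN, ndhJ, atpI and ndhF, which did not, is no independent result, and the medians below include them. Over all 14399 probe sets tested, 27.4% were called lower in roots and 67.9% were called in either direction. The median change of the members was -3.03 on the log2 scale, against 0.13 over all probe sets tested. The size of the change spanned a wide range, from -5.45 for psaA to -0.88 for ndhF. Among those that passed in roots, rpoC1 had the smallest change in size, at -0.89. The median differed between functional groups. It was -3.94 for photosystem II, -3.38 for photosystem I, -3.32 for the ATP synthase, -2.73 for the cytochrome b6f complex, -2.63 for the NDH complex and -1.46 for the RNA polymerase. In whole organs, fewer plastids or plastid genomes and less RNA from each cannot be told apart.

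**Figure D1:**
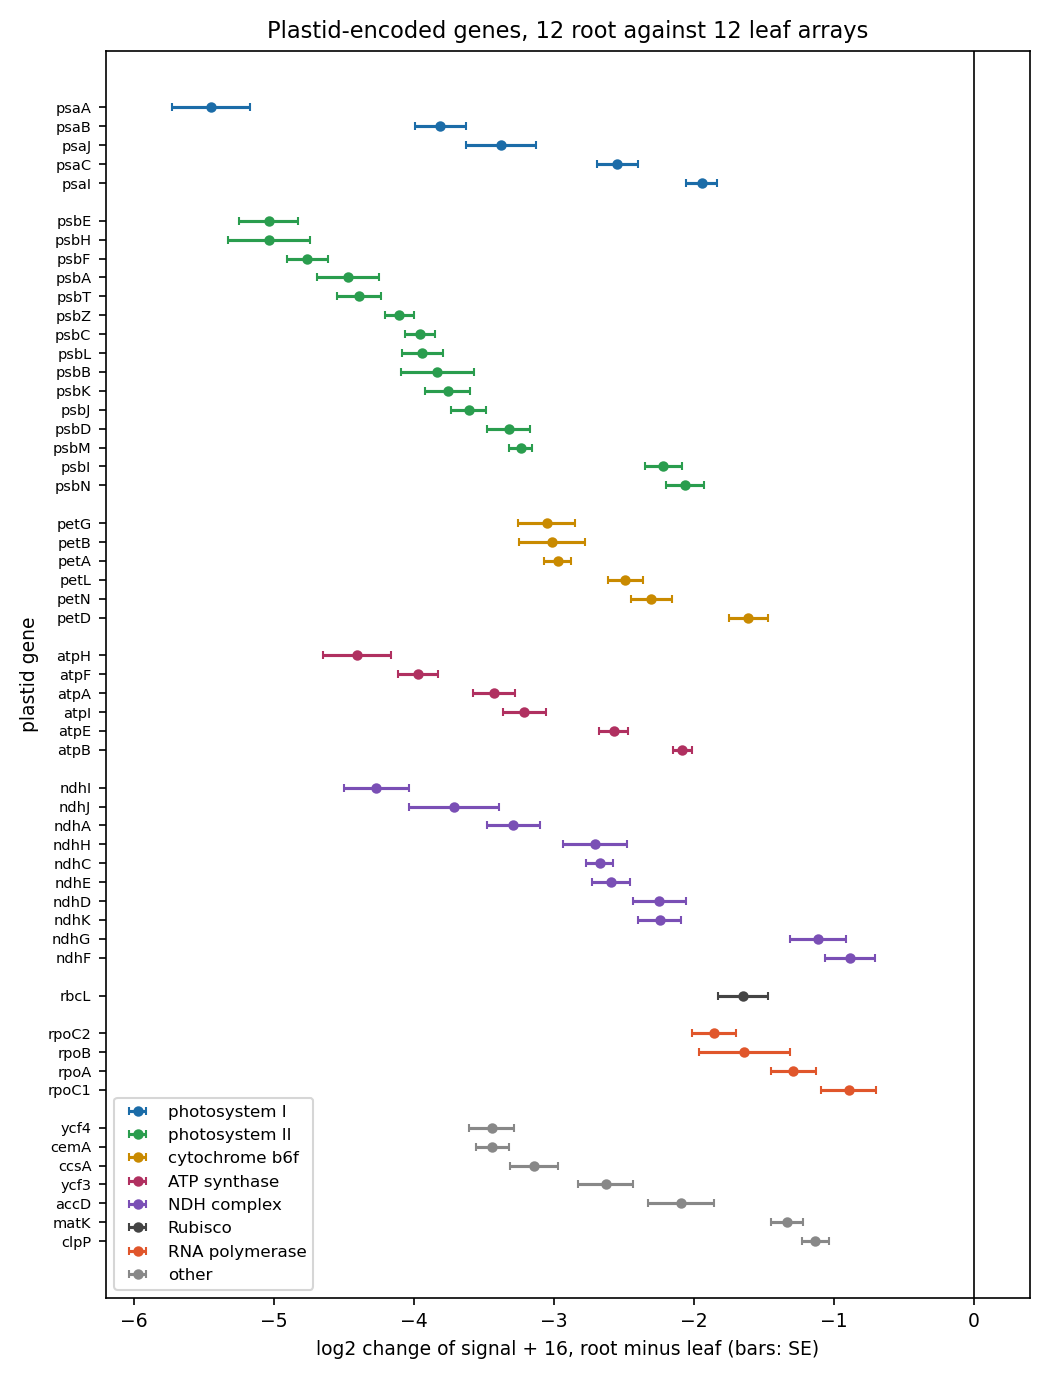
Root minus leaf change of log2(signal + 16) for the 54 plastid-encoded members, sorted within functional groups; points are limma estimates over 24 arrays and bars are standard errors. All 54 points lie below 0, with psaA farthest at -5.45 and ndhF nearest at -0.88.

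Photosystem I transfers electrons from plastocyanin to ferredoxin, and psaA and psaB encode the heterodimer that carries its reaction centre. The psaA signal had a lowest, median and highest value of 9.73, 63.5 and 155 over the 12 root arrays and of 1688, 4096 and 5003 over the 12 leaf arrays. Its change of -5.45 (SE 0.28) was the farthest from 0 of the members (adjusted p 2.06e-13), and the organs did not overlap. The size of the psaA change varied with the pseudocount, at -4.74 with a pseudocount of 64 and -5.83 with a pseudocount of 1. For psaB, cotranscribed with psaA in plants, the values were 200.1, 442 and 1163 in roots and 6025, 6991 and 7575 in leaves. The psaB change was -3.81 (SE 0.18), a smaller size than that of its neighbour. The iron-sulphur subunit gene psaC and the small subunit genes psaJ and psaI changed by -2.55, -3.38 and -1.94.

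Photosystem II, which oxidises water, gave the largest group of members and the lowest group median. The cytochrome b559 gene psbE had signals of 83.0, 163 and 405 (lowest, median and highest) in roots and 4695, 6458 and 8174.5 in leaves, without overlap, and a change of -5.04 (SE 0.21, adjusted p 8e-15). Its operon partner psbF, the other cytochrome b559 subunit, changed by -4.76 (SE 0.15). The small phosphoprotein gene psbH had 11.8, 91.3 and 237 in roots and 2121, 4005 and 4496 in leaves, a change of -5.03 (SE 0.29). Genes of the reaction centre and core antenna were lower in roots too. The change was -4.47 for psbA (the D1 protein), -3.32 for psbD (the D2 protein), -3.96 for psbC (CP43) and -3.83 for psbB (CP47). The low-molecular-weight subunit gene psbI had the smallest change among the photosystem II members above the filter in both organs, at -2.22 (SE 0.13). For psbN, a photosystem II assembly factor gene below the filter in roots, the value was -2.06 with the pseudocount of 16 and -1.13 with 64. The small subunit gene psbK had 238, 468.5 and 1231 in roots and 5585, 6557 and 7326 in leaves and a change of -3.76 (SE 0.16).

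The cytochrome b6f complex links the photosystems, and petB encodes its cytochrome b6. Root signals of petB were 894.4, 1060.5 and 2014 (replicates 1, 2 and 3) for the non-accumulating bulk on control medium, 302, 416.4 and 1282 for that bulk with high zinc, 1400.2, 431.5 and 1421 for the accumulating bulk on control medium and 854, 357 and 1215 for it with high zinc. Leaf signals of petB ran from 5550.5 to 7928, so every leaf array stood above every root array while the root arrays spread over a 6.67-fold range. The petB change between organs was -3.01 (SE 0.24). The cytochrome f gene petA changed by -2.97 (SE 0.10), and petD, which encodes subunit IV and is cotranscribed with petB in plants, changed by -1.61 (SE 0.14). Members of the psbB-psbT-psbH-petB-petD unit therefore lay at -3.83, -4.39, -5.03, -3.01 and -1.61, which spans most of the range seen over the 54 members.

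The ATP synthase uses the proton gradient of the thylakoid, and atpB encodes the beta subunit of its catalytic head. In roots atpB had signals of 1914.4, 1942.6 and 2039 for the non-accumulating bulk on control medium, 1799.6, 1800.5 and 1378 for that bulk with high zinc, 2105, 2255.5 and 2229 for the accumulating bulk on control medium and 2067, 1902 and 1858 for it with high zinc. In leaves they were 8427, 8630.4 and 9229.7 for the non-accumulating bulk on control medium, 8015, 8049 and 8030.1 for that bulk with high zinc, 7588, 7136 and 8283 for the accumulating bulk on control medium and 8245, 9326 and 7878 for it with high zinc. The organs did not overlap, the arrays of an organ lay close together, and the change was -2.08 (SE 0.07, adjusted p 1.01e-16). The membrane subunit genes had changes of -4.41 for atpH (subunit c of the rotor ring) and -3.97 for atpF (subunit b). For atpI (subunit a), below the filter in roots, the value was -4.11 with a pseudocount of 1, -3.21 with 16 and -2.11 with 64. Those of atpA and atpE, the alpha and epsilon subunits, were -3.43 and -2.57.

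**Figure D2:**
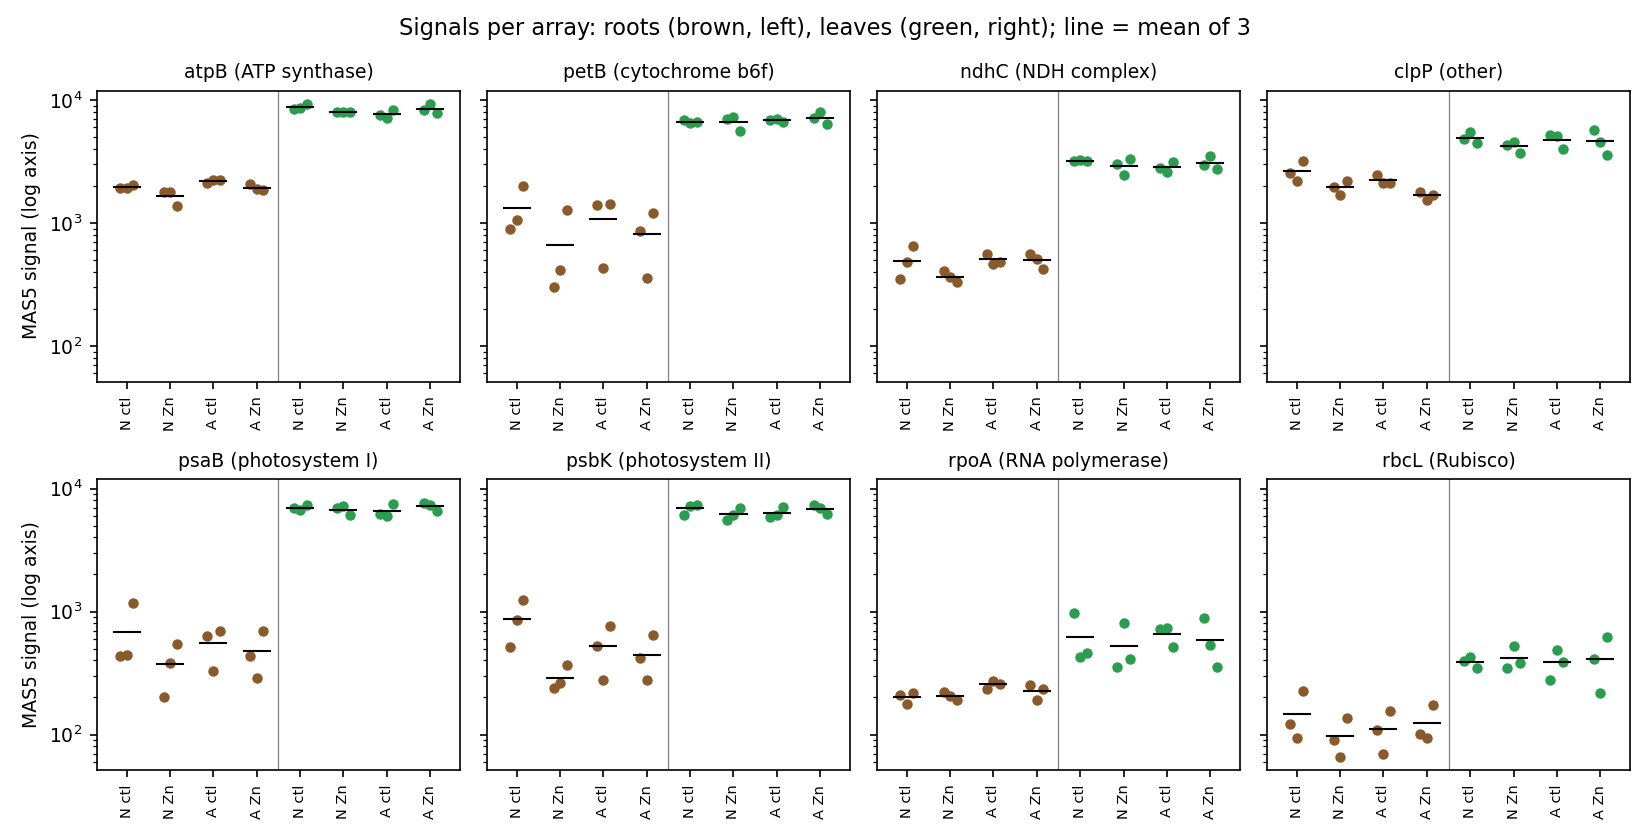
Signal per array on a log axis for 1 member of each functional group (atpB, petB, ndhC, clpP, psaB, psbK, rpoA, rbcL), picked by the highest mean log2 signal as a rule of choice and not as a ranking of transcripts; points are single arrays, brown for roots and green for leaves, by bulk (N non-accumulating, A accumulating) and medium (ctl control, Zn high zinc), and lines are means of 3. Leaf points stand above root points in every panel except that of rbcL, where 1 root array reaches into the leaf range.

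The NDH complex carries electrons back into the photosynthetic chain in cyclic flow. The membrane subunit gene ndhC had root signals of 352, 481 and 645 for the non-accumulating bulk on control medium, 406, 366 and 328.5 for that bulk with high zinc, 564, 468.5 and 483.5 for the accumulating bulk on control medium and 560.1, 510 and 419 for it with high zinc. Leaf signals of ndhC ran from 2466 to 3527, with no overlap, for a change of -2.67 (SE 0.10). The hydrophilic subunit gene ndhI changed by -4.27 (SE 0.23). For ndhJ, another such gene, the root signals of 3.75, 8.06 and 60.5 lay mostly below the filter, and the value was -4.88 with a pseudocount of 1, -3.72 with 16 and -2.48 with 64. At the other end, ndhG and ndhF, which encode membrane subunits, changed by -1.12 (SE 0.20) and -0.88 (SE 0.18), and their organs overlapped. For ndhF the signals were 3.65, 15.5 and 33.7 in roots and 22.7, 38.8 and 74.8 in leaves, all near the filter or below it, so its change was -0.42 with a pseudocount of 64 and -1.50 with a pseudocount of 1.

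The gene rbcL encodes the large subunit of Rubisco, the carbon-fixing enzyme. Its root signals were 123, 92.9 and 226 for the non-accumulating bulk on control medium, 91.1, 65.8 and 137 for that bulk with high zinc, 109, 69.3 and 155 for the accumulating bulk on control medium and 100.1, 93.8 and 175 for it with high zinc. Its leaf signals were 397, 426 and 346 for the non-accumulating bulk on control medium, 345, 528.5 and 379.9 for that bulk with high zinc, 279, 489 and 392 for the accumulating bulk on control medium and 407, 218 and 617.5 for it with high zinc. The highest root array (non-accumulating control, replicate 3) exceeded the lowest leaf array (accumulating high zinc, replicate 2), and the change was -1.65 (SE 0.18, adjusted p 6.16e-08).

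The polymerase genes showed smaller organ differences than most members. The alpha subunit gene rpoA had root signals from 175.5 to 274 and leaf signals of 969, 424 and 463 for the non-accumulating bulk on control medium, 355, 805 and 412 for that bulk with high zinc, 721, 733 and 514 for the accumulating bulk on control medium and 877.5, 530.5 and 352 for it with high zinc. Its organs did not overlap and its change was -1.29 (SE 0.16). The beta and beta' type subunit genes rpoB, rpoC1 and rpoC2 form 1 transcription unit in plants and changed by -1.64 (SE 0.32), -0.89 (SE 0.20) and -1.86 (SE 0.16). Root and leaf arrays overlapped for rpoB (adjusted p 0.000145) and rpoC1 (adjusted p 0.000479) and not for rpoC2.

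Among the other members, clpP, the proteolytic subunit of the Clp protease, had root signals of 2548, 2216 and 3197 for the non-accumulating bulk on control medium, 1966, 1705 and 2201 for that bulk with high zinc, 2449, 2111 and 2096 for the accumulating bulk on control medium and 1773, 1548.5 and 1704 for it with high zinc. Its leaf signals ran from 3580.4 to 5690.1, above every root array, and its change was -1.13 (SE 0.09). The maturase gene matK, whose product takes part in intron splicing, changed by -1.33 (SE 0.12), and accD, which encodes a subunit of the acetyl-CoA carboxylase of fatty acid synthesis, by -2.09 (SE 0.24). The photosystem I assembly genes ycf4 and ycf3 changed by -3.44 and -2.63, the cytochrome maturation gene ccsA by -3.14 and the envelope protein gene cemA by -3.44. Within this group the 3 members with no direct part in photosynthesis, clpP, matK and accD, thus had the changes nearest to 0. Over all 54 members the organs overlapped for rbcL, rpoB, rpoC1, ndhG and ndhF. The others, which include psbN, ndhJ and atpI from below the root filter, did not overlap. That is a description only, since overlap over all probe sets is not given here and 67.9% of them were called between organs.

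Neighbouring gene lists gave other ranges in the same fit. Of 15 plastid-encoded ribosomal protein genes, 13 were called lower in roots and all 15 estimates lay below 0. Their median was -1.49, with a range from -3.54 for rps4 to -0.18 for rps14. Of 14 mitochondrion-encoded genes tested, 9 were called lower and all 14 estimates lay below 0. Their median was -0.53, with cox2, a cytochrome oxidase subunit gene, at -1.69. All 12 nuclear-encoded photosynthesis subunits tested were called lower, with a median of -5.58 and LHCB4.2, an antenna protein of photosystem II, at -6.76. Of that list only 4 passed the filter in roots. The others entered through their leaf signals, so their direction is no independent result. Root signals of LHCB4.2, from 2.10 to 5.27, lay below the pseudocount, which set the size of its change in part. On the ribosomal and mitochondrial lists 13 and 11 genes passed in roots. Of the nuclear genes of plastid RNA processing only CRR28, an editing factor, was tested, at -0.76, and no nuclear gene of plastid transcription passed the filter.

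The organ difference had the same sign in both bulks. In the non-accumulating bulk 53 of 54 members were called lower (21.3% of all probe sets tested), the exception being ndhF at -0.54 (adjusted p 0.0741). In the accumulating bulk all 54 were called lower (22.6% of all probe sets tested), ndhF at -1.23 included. A test of whether the organ difference itself differed between bulks called 0 members (0% of all probe sets tested in limma, and 2.58% at an unadjusted p below 0.05). The interval of that difference lay within 1 log2 unit of 0 for 39 of 54 members, with the widest departures for psbH (-1.81 to 0.63) and rpoB (-0.97 to 1.73). The same test for medium also called 0 members (0.00694% of all probe sets tested, and 6.48% at an unadjusted p below 0.05).

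The spread of the members between root arrays of a group was larger at the median than that of all probe sets. The median standard deviation of log2 values within groups was 0.44 over the 50 members tested in roots, against 0.25 over all probe sets tested there. In leaves it was 0.31 over the 54 members and 0.34 over all probe sets tested. The steadiest member in both organs was atpB, with 0.12 in roots and 0.09 in leaves, and the most variable were psbH in roots at 1.07 and rpoB in leaves at 1.24. Averaged over the 54 members, the mean log2 value per array was 7.53, 7.63 and 8.26 (replicates 1, 2 and 3) in non-accumulating control roots and 7.25, 7.35 and 7.77 in non-accumulating high-zinc roots. It was 7.83, 7.31 and 7.91 in accumulating control roots and 7.52, 7.19 and 7.97 in accumulating high-zinc roots. In every root group the array with replicate number 3 was the highest of the 3. The leaf means ran from 10.36 to 10.81 over all 12 arrays, with the 4 arrays of replicate number 3 between 10.36 and 10.59.

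**Figure D3:**
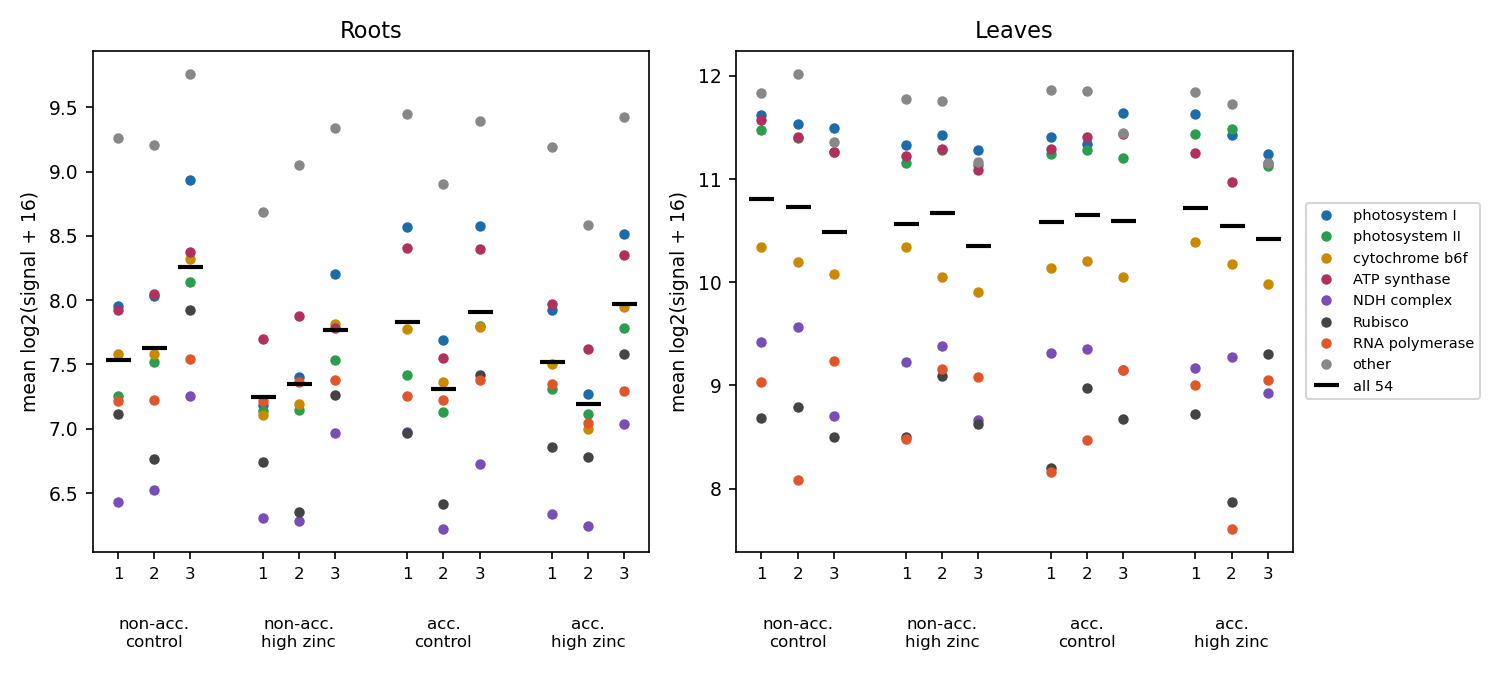
Mean log2(signal + 16) per array over the members of each functional group (coloured points) and over all 54 members (black bars), for the 12 root and 12 leaf arrays. Root bars lie between 7.19 and 8.26, and leaf bars between 10.36 and 10.81.

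Deviations of the members were mostly positively correlated between root arrays, but no such value over pairs of all probe sets is given here for comparison. The pairs in roots include psbN, ndhJ, atpI and ndhF from below the filter, and the pairs called other may hold further cotranscribed genes. As a description over the 12 arrays of an organ, where members of an array share its RNA and its scaling, the deviations of 2 members from their group means had a median Pearson correlation of 0.73 (Spearman 0.69) over 52 pairs from the same transcription unit in roots, and of 0.52 (0.50) over 1379 other pairs. In leaves the medians were 0.52 (0.51) within a unit and 0.14 (0.12) for other pairs. Leaf values within psbE-psbF-psbL-psbJ (median 0.89) and within rpoB-rpoC1-rpoC2 (0.88) had the highest such medians. The polymerase unit did not show this in roots, at -0.25, and ndhC-ndhK-ndhJ had a median of -0.28 in leaves.

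**Figure D4:**
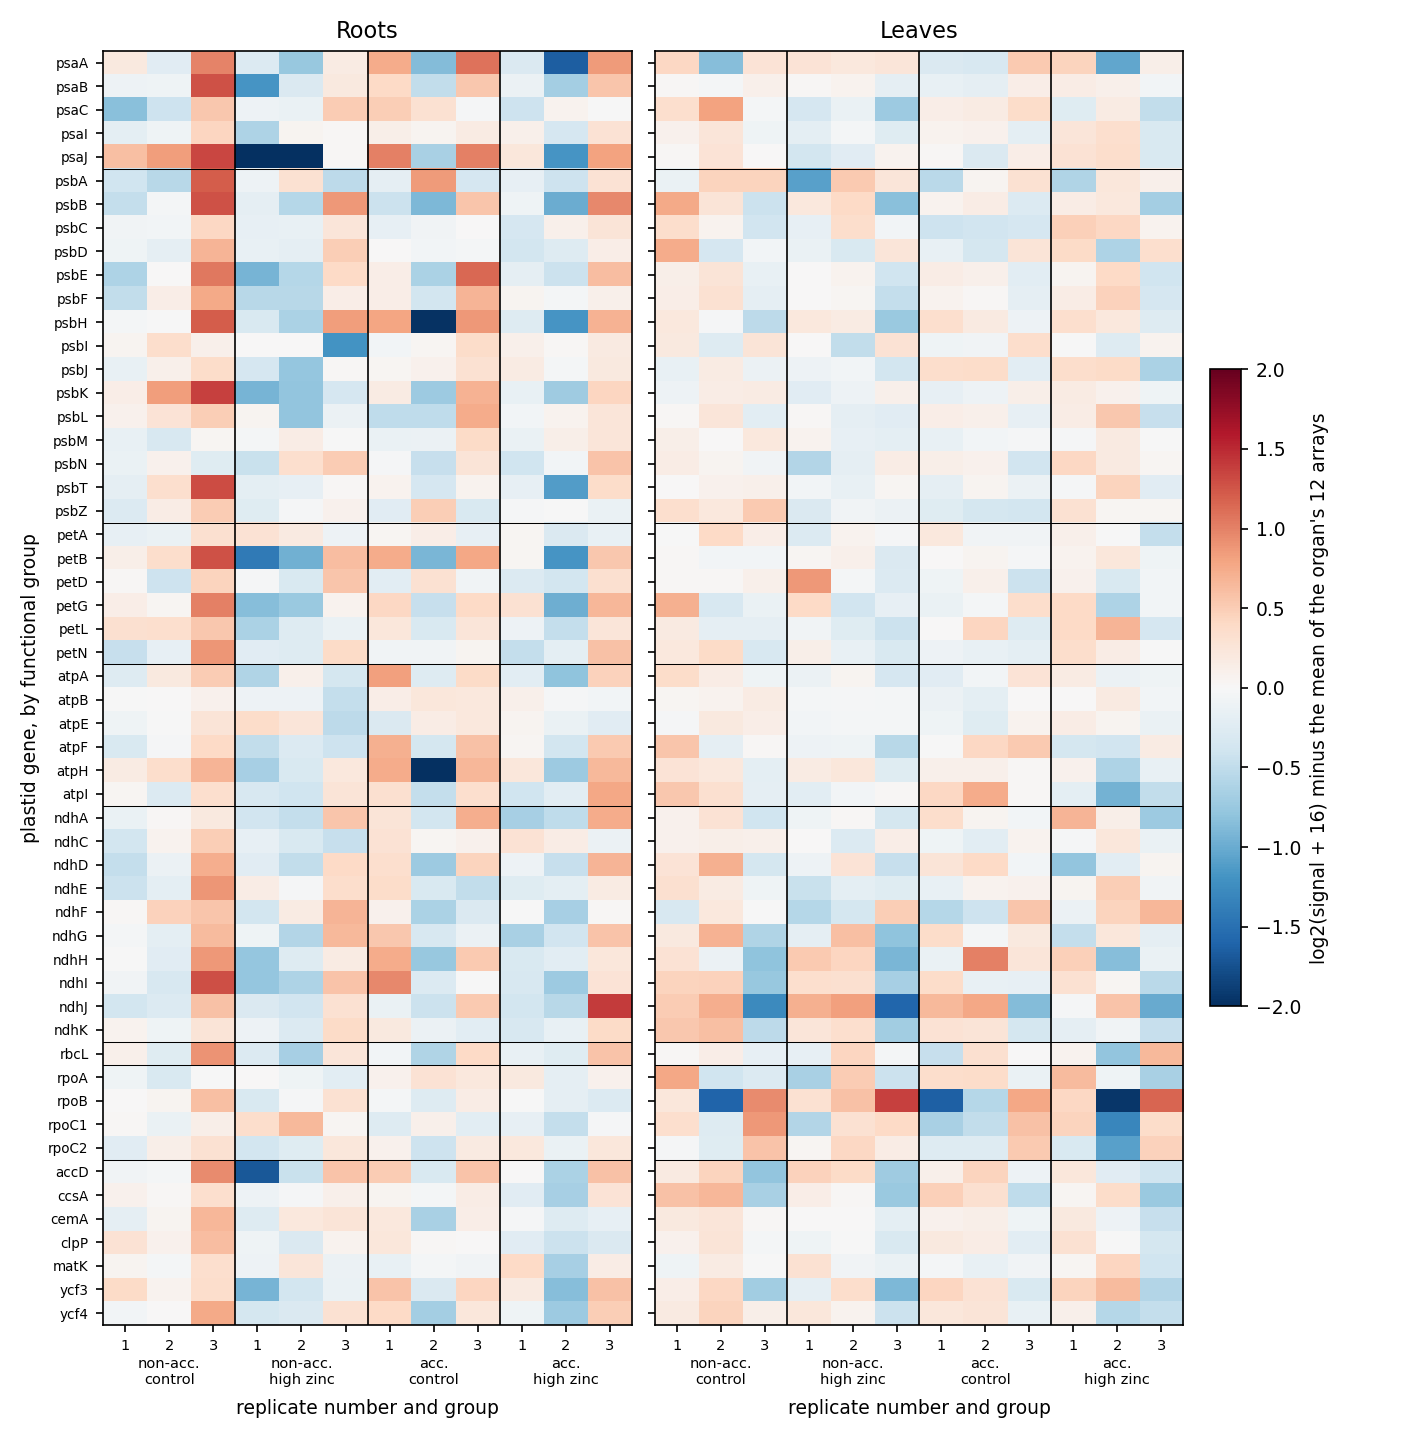
Deviation of log2(signal + 16) from the mean of the 12 arrays of the same organ, for 54 members (rows, by functional group) and 12 arrays of roots and of leaves (columns); red is above and blue below, on a scale of 2 log2 units each way. Root columns of replicate number 3 are red over most rows, and in leaves the polymerase rows and the row of ndhJ stand out.

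The zinc comparison asked which members differed between high-zinc and control medium. In roots none of the 50 members tested was called (0% of all 12489 probe sets tested), and 4 (psaJ, psbK, petL and clpP) had an unadjusted p below 0.05, where 6.84% of all probe sets did. The estimates lay mostly below 0, at 46 of 50 members, with a median of -0.20 against 0.00 over all probe sets tested. All 5 photosystem I members were below 0 (median -0.51), as were all 6 of the cytochrome b6f complex (-0.25), the 5 ATP synthase members tested (-0.21) and the 7 others (-0.22), and 12 of 14 photosystem II members (-0.23). The 4 polymerase members had a median of -0.04. Members of an array share its RNA and its scaling, so these counts of estimates are not independent evidence of a change. The median over all members was -0.30 without replicate 3 of accumulating high-zinc roots. Without replicate 3 of non-accumulating control roots it was -0.09. The 95% interval lay within 1 log2 unit of 0 for 38 of 50 members.

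The lowest zinc estimate in roots was that of psaJ, a small photosystem I subunit. In non-accumulating roots psaJ had 758, 896 and 1272 on control medium and 108.5, 112.5 and 503 with high zinc, and the media did not overlap. In accumulating roots it had 1003, 308 and 1012 on control medium and 583, 208 and 869.9 with high zinc, where the media overlapped. The change over both bulks was -1.38 (SE 0.43) with an adjusted p of 0.587 and an interval of -2.32 to -0.45. It was -2.26 (SE 0.61, adjusted p 0.419) in the non-accumulating bulk and -0.50 (SE 0.61) in the accumulating bulk, and the difference between bulks, 1.75 (SE 0.87, adjusted p 0.998), was not called.

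A similar order of arrays was seen for psbK, a photosystem II subunit gene. Non-accumulating control roots gave 516.5, 851 and 1231 and high-zinc roots of that bulk 238, 264 and 368, without overlap. Accumulating control roots gave 528.5, 278 and 766, and their high-zinc counterparts overlapped them at 420.5, 279 and 639. The psbK change was -0.83 (SE 0.28, adjusted p 0.609) over both bulks and -1.47 (SE 0.39, adjusted p 0.415) in the non-accumulating bulk. Next in size were petB at -0.78 (SE 0.42) and psaA at -0.65 (SE 0.42), neither called. The protease gene clpP was at -0.41 (SE 0.12, adjusted p 0.564) and petL, a small cytochrome b6f subunit gene, at -0.45. The estimates farthest above 0 were those of rpoC1 at 0.12, psbM, a small photosystem II subunit gene, at 0.10, ndhE at 0.06 and psbB at 0.00. By bulk, 43 of 50 estimates were below 0 in the non-accumulating bulk and 39 of 50 in the accumulating bulk, with 0 called in each (0% of all probe sets tested, with 8.15% and 2.89% at an unadjusted p below 0.05). Those counts have the same limit, since members share arrays. The accumulating median ran from -0.32 to 0.02 over the alternative fits, and the non-accumulating median, -0.30 in the main fit, from -0.47 to -0.07. The value of -0.47 came without replicate 1 of non-accumulating control roots, the array with the source name halleri.

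In leaves none of the 54 members was called for zinc (0.0315% of all 12685 probe sets tested), 4 (atpI, psaC, atpF and psbC) had an unadjusted p below 0.05, where 9.38% of all probe sets did, and the median was -0.08 against 0.00 over all probe sets tested. The lowest estimate was that of atpI, subunit a of the ATP synthase. Non-accumulating leaves had 422.5, 358 and 250.5 on control medium and 244.5, 273 and 290.4 with high zinc. Accumulating leaves had 383, 488 and 291 on control medium and 246, 140.3 and 199 with high zinc. In the accumulating bulk the high-zinc arrays all lay below the control arrays, whereas in the non-accumulating bulk 1 control array (replicate 3) fell among the high-zinc arrays. The change was -0.62 (SE 0.19) with an adjusted p of 0.338. Without the 4 leaf arrays of replicate number 3 it was -0.85 (adjusted p 0.0248) and atpI was the only member called, while 9.24% of all probe sets were called in that fit. With arrays weighted by their quality, 4 members were called, all lower: atpI at -0.73 (adjusted p 0.0065), psaC, atpF and ndhD, where 19.1% of all probe sets were called.

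The other leaf estimates for zinc were not called either. The iron-sulphur subunit gene psaC was at -0.59 (SE 0.19, adjusted p 0.36), atpF at -0.44 (SE 0.18) and ndhD at -0.41. The highest estimates were those of rpoB at 0.62 (SE 0.59), with an interval of -0.67 to 1.92, and psbC, the CP43 gene, at 0.36 (SE 0.16). The interval lay within 1 log2 unit of 0 for 50 of 54 members. Among nuclear photosynthesis subunits 0 of 12 were called, with a median of -0.51 and all 12 estimates below 0, and among mitochondrion-encoded genes 0 of 14 were called, with a median of 0.35 and 13 above 0. At an unadjusted limma p below 0.05 there were 7 of those 12 and 0 of those 14, beside 9.38% of all probe sets. Genes of a list share arrays, so these counts are not independent evidence of a change.

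The bulk comparison asked which members differed between plants pooled for accumulating and for not accumulating zinc. None was called in either organ (0% of all probe sets tested in limma in roots and in leaves, with 6.9% and 4.3% at an unadjusted p below 0.05). In roots 1 of 50 members had an unadjusted p below 0.05 and the median was -0.03, against -0.02 over all probe sets tested. That member was rpoC1, at -0.34 (SE 0.13, adjusted p 0.679). The extremes on the lower side were psbT at -0.37, psbH at -0.36 and psbB at -0.30, and on the higher side psaJ at 0.40, atpF at 0.37, psbJ at 0.25 and ndhC at 0.24. The interval lay within 1 log2 unit of 0 for 46 of 50 members. On control medium alone the median bulk difference in roots was -0.10. Over the alternative fits it ran from -0.26, without replicate 1 of non-accumulating control, to 0.08, without its replicate 3.

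In leaves the median bulk difference of the members was -0.01, against -0.03 over all probe sets tested, and none had an unadjusted p below 0.05. The lowest estimates were those of the polymerase unit, rpoB at -0.60 (SE 0.59), rpoC1 at -0.35 and rpoC2 at -0.30, followed by petD at -0.23. The highest were petL and ycf3 at 0.30, psbH at 0.23 and psbJ at 0.20. The rpoB interval ran from -1.89 to 0.70, while 51 of 54 members had an interval within 1 log2 unit of 0. The bulk by zinc interaction and the comparisons within a bulk or a medium also called 0 members in either organ. In limma they called 0% of all probe sets tested, apart from 0.00788% for zinc in leaves of the non-accumulating bulk. At an unadjusted p below 0.05 the shares over all probe sets were 4.94% and 5.8% for the bulk difference in roots on control and high-zinc medium, and 2.7% and 3.18% in leaves. They were 4.65% and 5.76% for zinc in leaves of the non-accumulating and the accumulating bulk, and 3.76% and 1.55% for the interaction in roots and in leaves.

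Arrays with replicate number 3 stood apart within the groups, in roots and in leaves, and the members' signals there were compared with those of replicate numbers 1 and 2 across all groups of an organ. Number 3 was chosen from these same data, so the calls and p-values below describe the difference and are no independent test of it. Arrays numbered 2 also all correlated best with their own number in both organs. The labels say nothing of what the numbers share, and the same number in roots and leaves may have nothing in common. In leaves 16 of 54 members were called, 3 higher and 13 lower with replicate number 3, where 22.8% of all probe sets tested were called (11.8% higher and 11% lower, with 37.7% at an unadjusted p below 0.05). By direction the members were uneven, with 13 of 54 lower beside 11% of all probe sets and 3 of 54 higher beside 11.8%. In the 12 fits that left out 1 array, 15.1% to 28.3% of the members were called in either direction. The share of all probe sets called there was 12.4% to 23.3%, below that of the members in each fit. The member median was -0.23, against -0.05 over all probe sets tested.

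The higher side in leaves held rpoB and rpoC2, 2 of the 3 genes of their polymerase unit. The leaf signals of rpoB were 567, 148.5 and 949 for the non-accumulating bulk on control medium, 600.3, 732 and 1271 for that bulk with high zinc, 146, 320.2 and 842.5 for the accumulating bulk on control medium and 649, 115 and 1107 for it with high zinc. In each group the array numbered 3 was the highest, and the 4 such arrays (842.5 to 1271) did not overlap the other 8 (115 to 732). The change was 1.59 (SE 0.43, adjusted p 0.0222), and that call was lost without replicate 3 of non-accumulating control (adjusted p 0.0579), of accumulating control (0.0746) or of accumulating high zinc (0.0803). It was also called in the control arrays alone and not in the high-zinc arrays alone (adjusted p 0.102), a split added after the data were seen, and the difference between media was not tested. Those splits called 10 members (17.7% of all probe sets) and 8 members (15.8%). The partner genes rpoC2 and rpoC1 were at 0.64 (SE 0.21) and 0.83 (SE 0.29), with adjusted p of 0.0455 and 0.0584, and rpoA, which lies in another unit, was at -0.56 (adjusted p 0.14). The third member called higher was ndhF at 0.63 (adjusted p 0.0456).

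The lower side in leaves was led by ndhJ, an NDH subunit gene. Its leaf signals were 527, 618 and 142 for the non-accumulating bulk on control medium, 607, 658 and 112 for that bulk with high zinc, 586, 639 and 193 for the accumulating bulk on control medium and 362, 552 and 175 for it with high zinc. In every group the array numbered 3 was the lowest, at 112 to 193 against 362 to 658 over the other 8, for a change of -1.78 (SE 0.18, adjusted p 0.000333). Its unit partners were at -0.76 for ndhK (adjusted p 0.00556) and 0.06 for ndhC (adjusted p 0.759), so 2 of the 3 genes of that unit were called.

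The cytochrome maturation gene ccsA had leaf signals of 4046, 4278 and 1714 for the non-accumulating bulk on control medium, 2963, 2743 and 1607 for that bulk with high zinc, 3737.5, 3372.5 and 1897.5 for the accumulating bulk on control medium and 2759.8, 3488 and 1608 for it with high zinc. Again the array numbered 3 was the lowest of each group, without overlap, and the change was -0.98 (SE 0.12, adjusted p 0.000777). For psbB, which encodes CP47, the leaf signals were 3846, 2737 and 1694 for the non-accumulating bulk on control medium, 2652, 3015 and 1274 for that bulk with high zinc, 2392, 2537 and 1875 for the accumulating bulk on control medium and 2517.5, 2653 and 1424.4 for it with high zinc, and the change was -0.83 (SE 0.15, adjusted p 0.00351). The other members called lower were ycf3 at -0.94, ndhI at -0.80, accD at -0.74, psbH at -0.61, ndhA at -0.57, psbJ at -0.49, psbF at -0.44, psbE at -0.43 and clpP at -0.34, beside ndhK. By group these were 5 of 15 photosystem II members, 4 of 10 NDH members and 4 of 7 others, and no member of photosystem I, the cytochrome b6f complex, the ATP synthase or Rubisco was called. Leaving out 1 array at a time gave 8 to 15 called, the fewest without replicate 3 of accumulating high zinc. The calls of accD, ccsA, ndhI, ndhJ, ndhK, psbB, psbH and ycf3 were kept in every such fit.

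Plastid-encoded ribosomal protein genes were called in both directions in leaves, with 5 of 15 called higher and 2 lower. The large-subunit genes rpl14 (668 to 1238 with replicate number 3 against 118 to 410.2), rpl36 (403 to 772 against 41.8 to 302) and rpl22 (749 to 1023 against 119 to 482.5) did not overlap. Their changes were 1.90 (SE 0.27), 1.74 (SE 0.31) and 1.61 (SE 0.30), with rps3 at 1.21 and rpl16 at 1.04 also called. Those 5 genes lie in the plant plastid ribosomal protein cluster that also contains rpoA, which was not called. The 2 lower were rps18 at -0.86 and rpl20 at -0.64.

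Other measures moved with replicate number 3 in leaves. The 25S ribosomal RNA control probe set ran from 8.02 to 11.61 (log2) in its 4 leaf arrays and from 5.76 to 7.42 in the other 8, without overlap. Of 14 mitochondrion-encoded genes tested 12 were called lower (median -0.75), and of 12 nuclear photosynthesis subunits 2 were called higher (median 0.43). Of the 5 leaf markers 2 were called higher, SBPASE at 1.30 and PRK at 1.39. The GAPDH 3' to 5' ratio, a measure of RNA integrity, ran from 1.19 to 1.59 (log2) in those 4 arrays and from 1.32 to 1.67 in the others. The part of these measures in the leaf result was not tested.

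In roots 7 of 50 members were called with replicate number 3, all 7 higher, where 0.633% of all probe sets tested were called higher and 1.56% in either direction (0.929% lower). Estimates lay above 0 for 44 of 50 members, with a median of 0.44 against 0.01 over all probe sets tested, and 31 had an unadjusted p below 0.05, where 16.6% of all probe sets did. The root signals of psbB were 99.9, 141 and 375 for the non-accumulating bulk on control medium, 127, 93.1 and 277 for that bulk with high zinc, 103, 70.2 and 221 for the accumulating bulk on control medium and 136, 64.9 and 299 for it with high zinc. The array numbered 3 was the highest in each group, and the 4 such arrays did not overlap the other 8, for a change of 1.37 (SE 0.17, adjusted p 0.00374). For psbE the signals were 107, 174 and 376 for the non-accumulating bulk on control medium, 83.0, 111 and 233 for that bulk with high zinc, 191.5, 105 and 405 for the accumulating bulk on control medium and 151, 124 and 273 for it with high zinc without overlap, and the change was 1.21 (SE 0.17, adjusted p 0.00559).

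The other 5 members called in roots were psaB at 0.96, ndhD at 0.85, ndhA at 0.84, rbcL at 0.79 and petN, a small cytochrome b6f subunit gene, at 0.71, with adjusted p from 0.0134 to 0.04. Estimates above all 5 of these that were not called were psbH at 1.35 (SE 0.37), petB at 1.20 (SE 0.29), psaJ at 1.19 (SE 0.32), psaA at 1.17 (SE 0.31) and accD at 1.00 (SE 0.25, adjusted p 0.0678). Those of atpH at 0.82, psbK at 0.81, petG at 0.80 and ndhI at 0.80, also not called, lay within the range of the 5. Both members of the atpB-atpE unit were near 0, at -0.09 and -0.11. The calls of psbB and psbE were kept when any 1 array was left out, and the other 5 were lost in some of these fits. The count of members called was 18 without replicate 1 of accumulating control and 4 or fewer without several other arrays. It was 3 and 4 without replicates 1 and 2 of non-accumulating control, and 3 without its replicate 3. It was 4 and 2 without replicates 2 and 3 of non-accumulating high zinc, 4 without replicate 3 of accumulating control, and 3 and 4 without replicates 2 and 3 of accumulating high zinc. The share of all probe sets called was 2.31% in the fit with 18 members called, and over the 12 fits that left out 1 array it ran from 0.271% to 2.31%, against 4% to 36.7% of the members.

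Beside these root results, the mean log2 value of the 5 leaf markers ran from 5.41 to 5.99 in the root arrays of replicate number 3 and from 5.02 to 5.42 in the other 8, against 9.75 to 11.93 in leaves. The mean of the nuclear photosynthesis subunits ran from 5.43 to 6.14 and from 5.40 to 5.62 in the same sets of root arrays. No ribosomal protein gene of the plastid was called among 13 tested (median -0.01), and no mitochondrion-encoded gene among 11 (median 0.33), where 1.56% of all probe sets were. At an unadjusted limma p below 0.05 there were 3 of those 13 and 8 of those 11, beside 16.6% of all probe sets. Estimates lay above 0 for 6 of the 13 and 9 of the 11, so higher values with number 3 were not particular to the members. The 25S ribosomal RNA control ran from 6.81 to 11.59 with replicate number 3 in roots and from 8.57 to 11.96 with the others. The signal of GI (GIGANTEA), a nuclear gene of the circadian clock, ran from 8.56 to 8.95 (log2) in the root arrays of replicate number 3 and from 9.15 to 9.71 in the other 8, without overlap. The mean of 3 nuclear genes of plastid RNA processing, none of which passed the filter in roots, ran from 4.91 to 5.15 and from 4.52 to 4.87, also without overlap. In leaves GI overlapped, at 7.63 to 8.93 and 7.02 to 9.05. The part of these measures in the root result was not tested. A test of the difference between organs in the change with replicate number 3, added after both were seen, called 27 of 54 members, all with a higher value in roots, where 17.9% of all probe sets were called (7.85% higher and 10% lower, with 32.4% at an unadjusted p below 0.05).

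**Figure D5:**
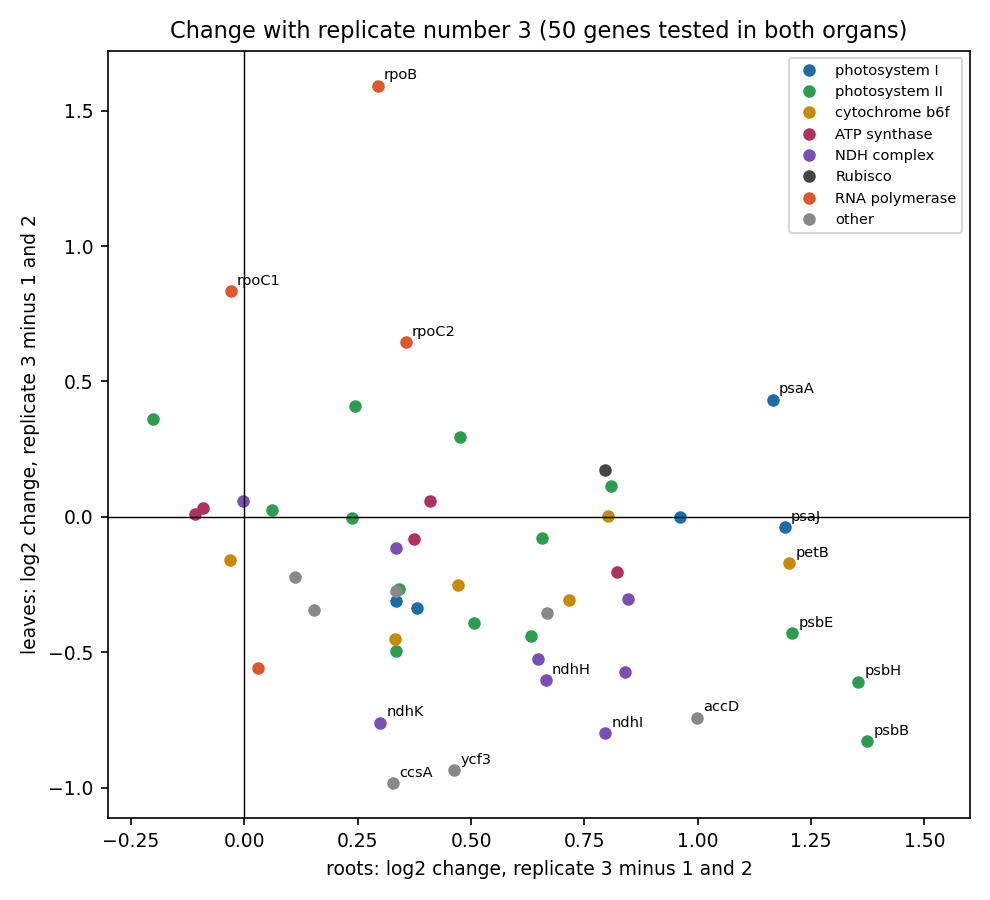
Change with replicate number 3 against numbers 1 and 2 in roots (horizontal axis) and in leaves (vertical axis), in log2 units, for the 50 members tested in both organs. Most points lie right of 0, with psbB and psbE farthest right among those called, and spread above and below 0 vertically, where rpoB stands highest at 1.59.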

How the data were processed

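The deposited values were MAS5 signals in linear intensity units, and the submitters' processing notes named MAS5. Its version, target scaling and present calls were not given in the sources used here. Each array's mean after trimming 2% at each end was 100, and that scaling by the authors was kept. The 64 control probe sets were left out. Symbols came from the platform's probe table, which gave 1 symbol for 13513 probe sets, several for 503 and none for 8730. Tests were run on log2(signal + 16) with limma 3.58.1 (R 4.3.3), using group means, a variance trend and Benjamini-Hochberg adjustment at 0.05 over all probe sets tested. Each organ had its own fit of 12 arrays, and all 24 entered the fit for root against leaf and for interactions with organ. A probe set was tested when its highest group mean exceeded the median value of its fit. Arrays give no read depth, so their number sets the precision. The members, gene lists and tests were chosen with earlier results of these data known. Named genes were the member with the highest mean log2 signal in each functional group, the 4 highest and 4 lowest changes per comparison, called members with further examples by group, and those nearest the filter. The labels do not say that a replicate number marks shared material, so no block entered the fits. Alternatives were pseudocounts of 1 and 64, other filters, quantile and median scaling, array weights, a plain variance prior, the replicate number as a block, all arrays in 1 fit, and leaving out arrays. The statistics were tested on simulated data with independent noise for each probe set and array. Deviations that genes of an array share, as seen here, were not simulated, so that test says nothing of their effect on the calls.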

Additional observations from a re-analysis of the deposited data

Results flagged for a closer look

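The change with replicate number 3 differed between organs for 27 of 54 plastid-encoded members, all 27 with a higher value for roots minus leaves, by a test of the difference added after both organs' changes had been seen. Over all probe sets tested 17.9% were called in that test, 7.85% in this direction, and the median was 0.73 over the members and 0.04 over all. The difference was 2.20 for psbB (SE 0.24, adjusted p 2.64e-05 in limma), whose changes were 1.37 in roots and -0.83 in leaves. It was 1.96 for psbH (SE 0.43, adjusted p 0.00424) and 1.74 for accD (SE 0.32, adjusted p 0.00144). For ndhJ it was 2.83, but ndhJ was below the filter in roots and entered through its leaf signals, and pseudocounts of 64 and 1 gave 1.97 and 3.91. The polymerase gene rpoB lay on the other side at -1.30 and was not called (adjusted p 0.0672). Leaving out 1 array at a time gave 21 to 30 members called, beside 12% to 19.1% of all probe sets. Of other lists, 12 of 14 mitochondrion-encoded genes were called in the same direction as the members, 6 of 15 plastid-encoded ribosomal protein genes were called in the opposite direction and 0 higher, and 0 of 12 nuclear photosynthesis subunits were called. Whether a replicate number stands for anything shared between roots and leaves is not known.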

How the results depend on the processing

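Every member tested, 53 or 54 by setting, was called lower in roots than in leaves under every alternative run, and 51 to 54 were within a bulk. Shares of all probe sets called stand in parentheses. Without a filter, 4 members were called for replicate number 3 in roots (0.413%) and 10 in leaves (13.2%). Array weights gave 4 members for replicate number 3 in roots (0.945%), 4 for zinc in leaves (19.1%), by bulk 3 non-accumulating (5.98%) and 4 accumulating (9.4%), 1 for the bulk difference in high-zinc leaves (2.39%) and 1 for the organ by zinc interaction (7.94%). Leaving out the leaf arrays of replicate number 3 gave 1 for zinc in leaves (9.24%). Control leaf arrays only gave 10 (17.7%) and high-zinc leaf arrays only 8 (15.8%) for replicate number 3. Leaving out 1 array at a time gave 2 to 18 for replicate number 3 in roots (0.271% to 2.31%) and 8 to 15 in leaves (12.4% to 23.3%). Causes were not tested. Deviations of same-numbered arrays correlated above 0.1 in all 6 pairs of groups for numbers 2 and 3 in leaves and 3 in roots, in 4 of 6 for number 2 in roots, and in 3 of 6 (leaves) and 1 of 6 (roots) for number 1. Arrays numbered 2 and 3 all correlated best with their own number, against 1 of 4 (leaves) and 0 of 4 (roots) numbered 1, so the numbers were not taken as pairs throughout. With the replicate block, 54 members were called between organs (54 in each bulk) and 0 in every other comparison; psaJ for zinc in roots had an adjusted p of 0.128. No called change reversed. Estimates that were not called changed sign: atpB for replicate number 3 in roots was 0.033 with quantile scaling. With 1 array left out it ranged from -0.15 to 0.0065, atpE from -0.24 to 0.13, petA from -0.20 to 0.068 and psbI from -0.39 to 0.13. For zinc in roots psbB ranged from -0.25 to 0.26 and ndhE from -0.067 to 0.26. For zinc in leaves petD ranged from -0.081 to 0.21, and for the bulk difference in roots psbH ranged from -0.60 to 0.11. The 95% intervals of the zinc difference over both bulks and the bulk difference over both media reached a median of 0.48 log2 units to each side in roots and 0.41 in leaves. Within a bulk or a medium, with 3 arrays a group, they reached 0.67 in roots and 0.58 in leaves. For the bulk by zinc interaction they reached 0.95 and 0.82.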
